A study of Mus musculus with 40 samples.

Results

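The protein-coding genes Evl, Il31ra, Ggt5, Jakmip1, Cd53 and Qsox2 were selected because their RNA differed in one direction in DN3 thymocytes after both ways of deleting Zmiz1. They are 6 of the 23284 genes listed for the pI-pC and antibody libraries and of the 23107 genes listed for each set of tamoxifen libraries. Evl, Il31ra, Ggt5, Jakmip1 and Cd53 were higher after each deletion, and Qsox2 was lower. These values chose the genes, so they are given below as a description, without a test. The levels in early T-cell precursors (ETP), the stage difference and the response to a Notch1 antibody were not used in the choice and were tested.

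Thymocytes develop through double-negative stages that carry neither CD4 nor CD8. ETP are the earliest of these and still resemble bone marrow progenitors, and DN3 cells rearrange the T-cell receptor beta locus and depend on Notch1. Zmiz1 is a transcriptional co-activator related to the PIAS proteins that binds Notch1. Evl belongs to the Ena/VASP proteins, which lengthen actin filaments at the leading edge and at cell contacts. Il31ra encodes a cytokine receptor chain related to Il6st that pairs with Osmr and signals through Janus kinases and STAT factors. Ggt5 encodes a membrane gamma-glutamyl transferase acting on glutathione and leukotrienes. Jakmip1 encodes a coiled-coil protein that binds Janus kinases and microtubules. Cd53 encodes a tetraspanin of white blood cells, a membrane protein that organises receptors, and Qsox2 encodes a sulfhydryl oxidase that forms disulfide bonds in secreted and membrane proteins.

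RNA was sequenced from 40 libraries in 12 groups of sorted C57BL/6 mouse thymocytes, 6 groups of DN3 cells and 6 of ETP. The DeltaMxCre mice were MxCreZmiz1f/f and their controls carried MxCre alone. Both received 5 injections of 40 mcg pI-pC at intervals of 2 days, and cells were taken 8 weeks later (3 mice per group). MxCre is driven by an interferon-induced promoter, so pI-pC can turn it on in the progenitors of thymocytes and in other cells. The DeltaTamCre mice were Rosa26CreERT2Zmiz1f/f and their TamCre controls were Rosa26CreERT2. Both received 0.2 mg/g tamoxifen, which activates a Cre present in most cell types, and cells were sorted between 43 and 44 hours later (4 mice per group). The AntiNRR groups received 10 mg/kg of an antibody that blocks Notch1 at its negative regulatory region, and the IgG groups received the isotype control. Those cells were sorted at 24 hours, with 3 libraries per group, and the labels name no engineered allele for these mice. The labels do not tie a library number to an animal, so p-values measure the spread between these libraries.

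Total counts per library lay between 9456818 and 23962395 in the pI-pC and antibody libraries, between 48127197 and 91659598 in tamoxifen DN3 and between 17418638 and 30975324 in tamoxifen ETP. Because the labels name another library kit for each of the 3 sets, every test stayed within a set, and tamoxifen DN3 was not compared with tamoxifen ETP. The labels describe both sorts as CD44+ and CD25-, but Cd44 RNA lay between 47.9 and 193 CPM in the ETP libraries of the pI-pC and antibody set and did not exceed 6.94 CPM in the DN3 libraries. Il2ra, which encodes CD25, reached 5019 CPM in ETP, so the ETP libraries were not free of it. Zmiz1 was lower after deletion in DN3 (log2 fold change -1.41 after pI-pC and -0.66 after tamoxifen, edgeR adjusted p = 0.000144 and 0.0368). In ETP its log2 fold changes of -1.41 and -1.13 did not pass (0.256 and 0.907). The libraries DeltaTamCre DN3 1 and 4 and TamCre DN3 2 exceeded 20 CPM of Cd8a, a double-positive thymocyte marker, at 44.8, 25.5 and 26.7 CPM. This limit was set after the data were seen. Median Cd8a was 21.0 CPM in DeltaTamCre DN3 and 8.24 in TamCre DN3, and the lowest levels were 9.09 and 7.05. CPM here are TMM-scaled read counts relative to library size, set within each table. Whether the libraries of 2 groups overlap is given throughout as a description. The share of all genes without overlap is not given, so nothing is read from a separation.

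The promoters of the selected genes are shown because the genes were chosen for a shared change after loss of a transcriptional co-activator, and capitals mark the motif letters found in them. RefSeq gives 7 promoter entries for 5 of the 6 genes on GRCm38.p6, and each line below holds the bases before a transcription start, 5′ to 3′ on the strand of the gene. Both strands of the 250 bases before each start were searched for 6 motifs. Rbpj, the DNA-binding partner of Notch1, was given the letters TGGGAA. Runx factors, which act throughout T-cell development, were given TGTGGT, and Myc was given the palindrome CACGTG. The Stat letters were TTCNNNGAA. The letters for the T-cell factors Tcf7 and Lef1 were CTTTGA, and those for Gata factors such as Gata3 were AGATAA. None of these 6 words contains another of them.
Evl start 1, chr12:108554470-108554719, plus strand: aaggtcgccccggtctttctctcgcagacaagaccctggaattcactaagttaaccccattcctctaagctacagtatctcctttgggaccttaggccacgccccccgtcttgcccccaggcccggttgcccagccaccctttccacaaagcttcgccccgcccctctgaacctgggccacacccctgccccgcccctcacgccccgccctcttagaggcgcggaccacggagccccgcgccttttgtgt
Evl start 2, chr12:108605516-108605765, plus strand: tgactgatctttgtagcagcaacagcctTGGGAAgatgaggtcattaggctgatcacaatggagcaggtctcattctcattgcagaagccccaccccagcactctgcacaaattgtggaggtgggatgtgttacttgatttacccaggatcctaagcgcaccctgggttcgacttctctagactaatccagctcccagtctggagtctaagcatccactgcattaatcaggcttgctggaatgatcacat
Il31ra, chr13:112580663-112580912, minus strand: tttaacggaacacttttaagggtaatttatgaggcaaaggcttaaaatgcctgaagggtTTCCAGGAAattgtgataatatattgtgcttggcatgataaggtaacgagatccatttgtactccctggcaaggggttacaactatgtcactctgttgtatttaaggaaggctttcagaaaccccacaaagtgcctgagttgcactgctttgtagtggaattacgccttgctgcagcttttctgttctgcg
Jakmip1 start 1, chr5:37050607-37050856, plus strand: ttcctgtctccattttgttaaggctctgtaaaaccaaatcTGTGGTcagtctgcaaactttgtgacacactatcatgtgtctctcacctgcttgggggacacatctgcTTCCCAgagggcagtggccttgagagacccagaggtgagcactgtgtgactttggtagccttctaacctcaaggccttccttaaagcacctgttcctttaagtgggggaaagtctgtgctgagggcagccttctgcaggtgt
Jakmip1 start 2, chr5:37084986-37085235, plus strand: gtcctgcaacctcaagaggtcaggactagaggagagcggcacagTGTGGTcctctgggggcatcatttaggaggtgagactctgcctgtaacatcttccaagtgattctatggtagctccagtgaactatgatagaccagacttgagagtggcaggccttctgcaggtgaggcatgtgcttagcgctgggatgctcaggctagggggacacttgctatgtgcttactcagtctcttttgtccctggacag
Cd53, chr3:106790150-106790399, minus strand: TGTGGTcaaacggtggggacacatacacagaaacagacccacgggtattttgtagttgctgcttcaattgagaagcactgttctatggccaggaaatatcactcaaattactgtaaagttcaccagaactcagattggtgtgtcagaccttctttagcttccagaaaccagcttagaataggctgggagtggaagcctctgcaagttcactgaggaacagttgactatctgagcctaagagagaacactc
Qsox2, the 124 bases furthest from the start, chr2:26237526-26237649, minus strand: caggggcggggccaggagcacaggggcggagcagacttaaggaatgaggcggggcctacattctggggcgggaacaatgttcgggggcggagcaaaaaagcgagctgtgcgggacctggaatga

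Matches were found before starts of Jakmip1, Cd53, Evl, Il31ra and Qsox2. The share of all promoters that hold any of the 6 motifs was not counted, so nothing is read from this. Jakmip1 and Cd53 held the Runx letters, at 210 and 206 bases before the 2 Jakmip1 starts and at 250 before the Cd53 start. Such a match stood in 14% of all 32851 RefSeq mouse promoters of this length. The Rbpj letters lay 222 bases before the inner Evl start, 142 before the first Jakmip1 start (on the other strand, so printed as TTCCCA) and 68 before the Qsox2 start, and 21.6% of all promoters held them. Il31ra held the Stat letters at 191 bases (7.02% of all promoters), and Qsox2 held the Myc letters at 7 bases (6.02%). Both Qsox2 matches lie in bases that GENCODE annotates as exon and that are not printed. The outer Evl start held no match, and the Tcf7 and Lef1 letters (13.8% of all promoters) and the Gata letters (9.99%) were in none of the 7 windows. The windows before the inner Evl start, the Il31ra start and both Jakmip1 starts lie within the span of their gene and hold no annotated exon bases. A match says only that these letters are present.

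**Figure D1:**
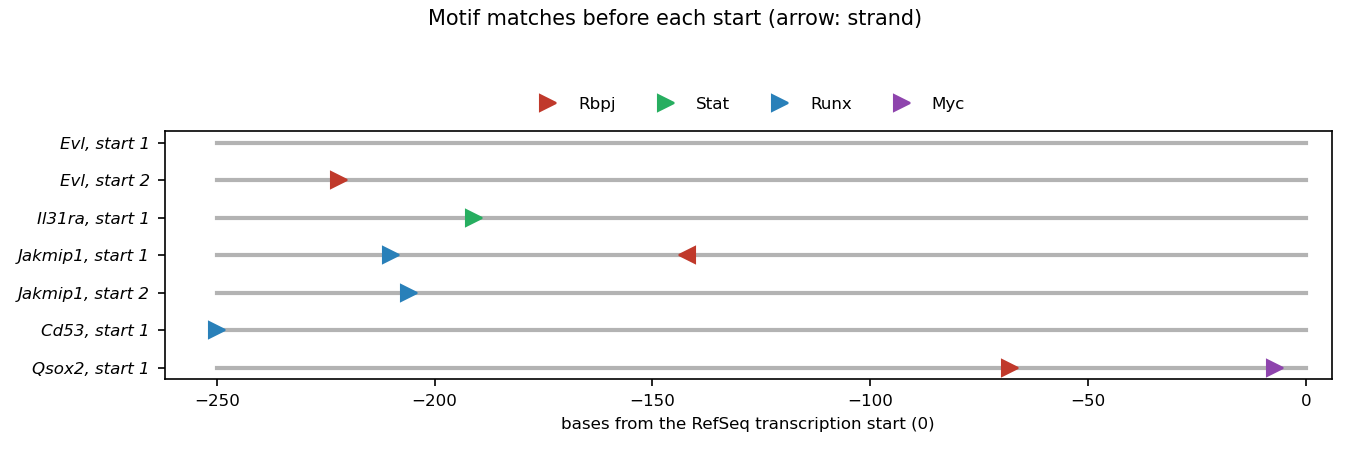
Motif matches in the bases before each RefSeq transcription start of 5 of the 6 genes, with the distance from the start in bases on the x axis and 1 line per start. Triangles mark the first base of a match and point along its strand. The outer Evl start has no match, and the 3 Runx matches lie between 206 and 250 bases before their starts.

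Among the genes of the cell surface, Cd53, Il31ra and Ggt5 all had higher levels in DN3 cells deleted with pI-pC. Il31ra (chromosome 13, 112519898 to 112594360, minus strand, GRCm38) held 10.2, 8.91 and 12.2 CPM in DeltaMxCre DN3 and 2.35, 2.42 and 2.15 in MxCre DN3, a fitted 4.51-fold difference (log2 2.17, SE 0.396). Ggt5 (chromosome 10, 75589340 to 75617200, plus strand) held 11.5, 12.6 and 14.0 CPM against 4.01, 3.63 and 2.36 (3.81-fold, log2 1.93, SE 0.363). Cd53 (chromosome 3, 106759921 to 106790149, minus strand) held 70.3, 112 and 120 CPM against 35.2, 34.3 and 54.5 (2.43-fold, log2 1.28, SE 0.225). For each of these 3 genes the lowest deleted library lay above the highest control library, which the choice of the genes on these libraries favours.

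The genes of the cell interior showed the largest and the smallest of the differences upward, and the single one downward. Evl (chromosome 12, 108554720 to 108688516, plus strand) stood at 57.6, 44.4 and 57.1 CPM in DeltaMxCre DN3 and at 10.3, 9.50 and 14.4 in MxCre DN3, 4.64-fold higher (log2 2.22, SE 0.227). Jakmip1 (chromosome 5, 37028335 to 37150607, plus strand) stood at 40.0, 39.2 and 40.8 CPM against 27.1, 19.7 and 16.3 (1.90-fold, log2 0.93, SE 0.219). Qsox2 (chromosome 2, 26208637 to 26237525, minus strand) stood at 16.7, 24.3 and 26.6 CPM against 41.0, 45.3 and 42.6, 1.90-fold lower (log2 -0.93, SE 0.211). The control libraries of Jakmip1 were spread more widely than its deleted libraries. In this comparison edgeR called 1.44% of 12675 genes, 125 higher and 58 lower, and since the choice of the genes used it nothing is read from their calls.

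After tamoxifen the directions were the same, which the choice of the genes required, and the values were smaller. In DeltaTamCre DN3, Evl stood at 31.0, 26.4, 25.6 and 23.2 CPM and in TamCre DN3 at 14.0, 13.9, 12.4 and 12.3 (2.02-fold, log2 1.02, SE 0.109). Il31ra stood at 14.8, 15.3, 17.0 and 18.4 CPM against 8.30, 8.81, 8.06 and 7.87 (1.98-fold, log2 0.99, SE 0.108). Ggt5 stood at 7.02, 5.89, 9.16 and 7.81 CPM against 3.34, 3.77, 3.21 and 3.67 (2.14-fold, log2 1.10, SE 0.162). These 3 genes, which had the largest pI-pC differences, also had the largest tamoxifen differences. Both comparisons chose the genes, so this order is a description and no support for a shared effect. Jakmip1 had 39.9, 42.9, 49.9 and 43.0 CPM against 24.6, 28.7, 25.6 and 25.3 (1.69-fold, log2 0.76, SE 0.0898). Cd53 had 57.1, 72.2, 81.4 and 73.2 CPM against 43.1, 44.8, 46.1 and 49.1 (1.55-fold, log2 0.64, SE 0.0982). Qsox2 had 46.0, 50.8, 49.7 and 54.4 CPM against 77.1, 66.2, 70.6 and 74.1, 1.43-fold lower (log2 -0.52, SE 0.0741). No deleted library overlapped the controls for any of the 6 genes, a separation that the choice of the genes on these libraries favours. The pI-pC and tamoxifen values come from different kits and times after deletion, and the difference between them was not tested.

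**Figure D2:**
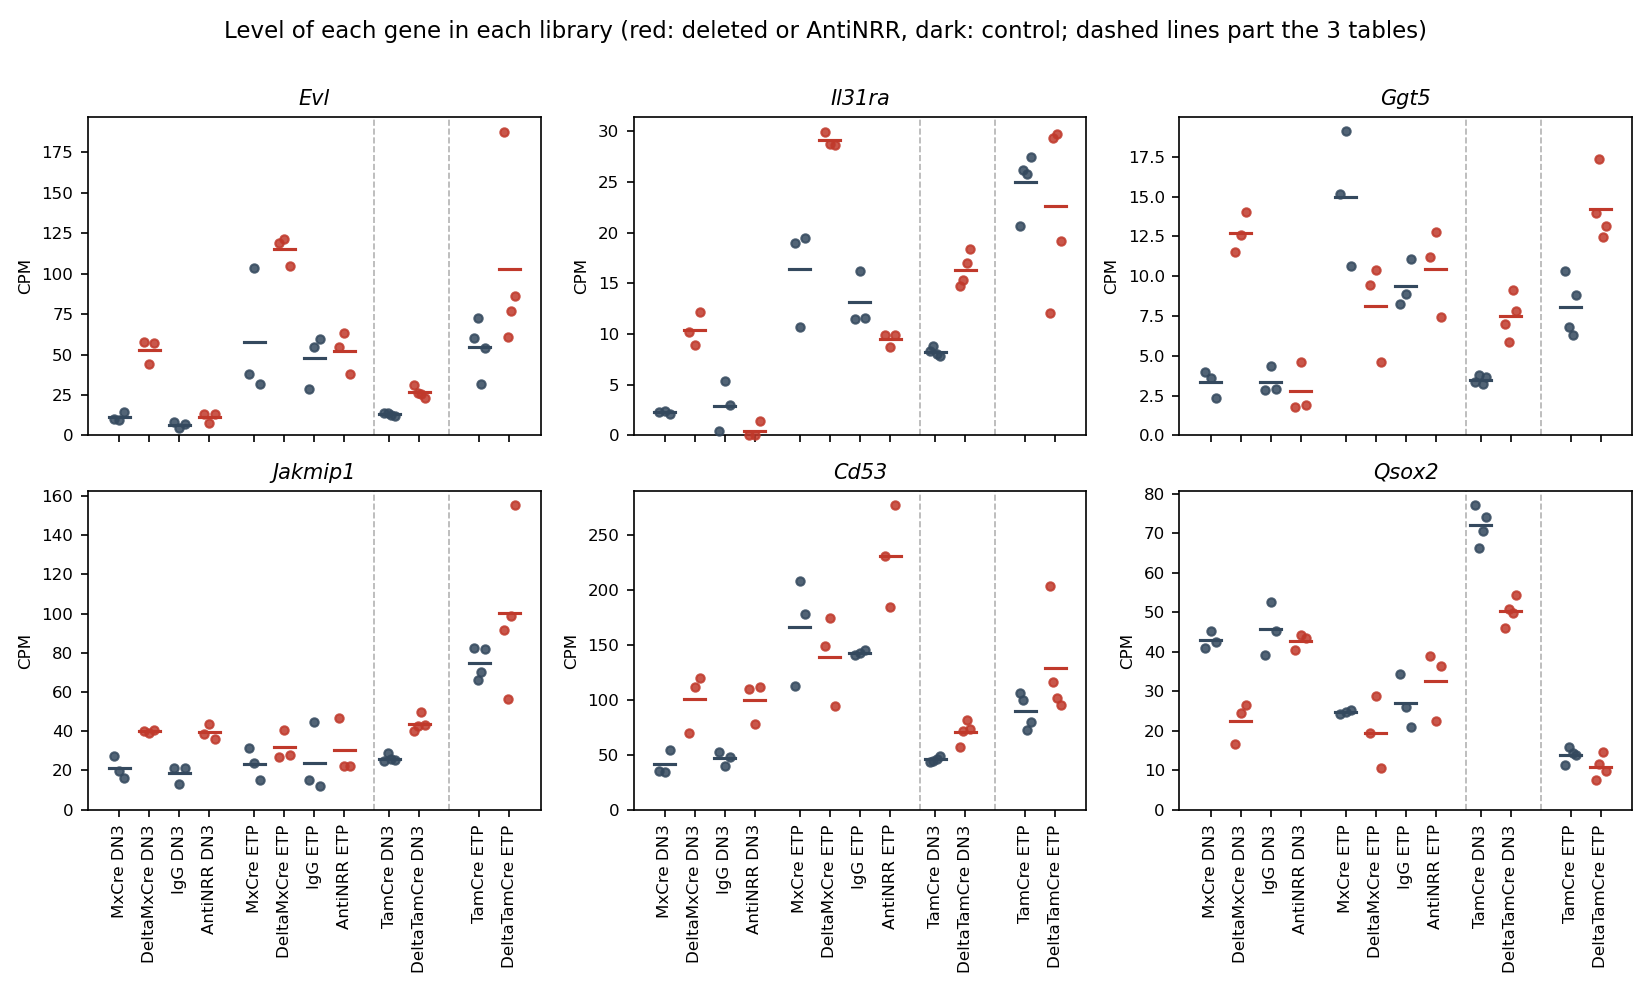
CPM of each of the 6 genes in each of the 40 libraries, 1 panel per gene and 1 point per library, with group means as short lines, deleted and AntiNRR groups in red and controls in dark grey. The DN3 deletions chose the genes, and the deleted DN3 groups stand apart from their controls in all panels. They lie above the controls for 5 genes and below them for Qsox2. Some ETP groups are spread more widely than in DN3, as for Evl in MxCre (SD 39.6 CPM against 2.61). Others are spread less, as for Cd53 in IgG (SD 2.12 CPM against 6.78).

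In tamoxifen DN3 edgeR called 0.0827% of 13298 genes, 7 higher and 4 lower. Over the 12091 genes tested in both DN3 deletions, 7 were called in both, all in the same direction, and they were the 6 selected genes and Zmiz1. Closest inside this threshold were Cd53 after tamoxifen (edgeR adjusted p = 0.0488) and Jakmip1 after pI-pC (0.0469). Just outside, among genes called after pI-pC, were Acsf2 (log2 1.37 after pI-pC and 0.54 after tamoxifen, tamoxifen edgeR adjusted p = 0.0565), Serpinb6b (1.18 and 0.61, 0.0867) and Ston2 (0.81 and 0.72, 0.0867). Without the 3 libraries with more Cd8a, chosen for exclusion after the data were seen, no gene was called after tamoxifen, and the log2 fold changes were 1.01 for Evl, 1.00 for Il31ra, 1.14 for Ggt5, 0.88 for Jakmip1, 0.74 for Cd53 and -0.56 for Qsox2. Their adjusted p lay between 0.127 and 0.258 with the 5 libraries left. The value for Evl was slightly smaller than with all 8 libraries, and the other 5 were larger in size.

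Markers of other cells and signs of RNA content moved with these contrasts as well. After pI-pC the summed CPM of 9 mature T-cell markers lay between 985 and 1350 in DeltaMxCre DN3 and between 717 and 882 in MxCre DN3, and that of 8 double-positive markers between 1781 and 2386 against 1296 and 1612. The 9 precursor markers lay between 170 and 234 CPM against 228 and 247. Thus the sums of mature and double-positive markers were higher and those of precursor markers overlapped. Pax5 of B cells, Elane, Prtn3 and S100a8 of myeloid cells and Krt5, Krt8 and Foxn1 of thymic epithelium were at 0 in both groups. The 12 markers of thymic stroma summed to between 445 and 559 CPM in DeltaMxCre DN3 and between 293 and 405 in the controls. Of these 12, 7 were at 0 in DeltaMxCre DN3 and 6 in MxCre DN3, so the sums rest on the few that remain. Besides the epithelial genes, Col1a2, Col3a1 and Pdgfra were at 0 in both groups and Cdh5 in DeltaMxCre DN3. The share of counts from the nuclear RNA Malat1 was 0.961% to 1.33% when deleted and 0.324% to 0.711% in controls. For Rn45s, a precursor of ribosomal RNA, it was 4.71% to 5.07% against 6.76% to 8.82%. After tamoxifen the mature T-cell markers summed to between 1094 and 1432 CPM against 1008 and 1091, 12 myeloid markers to between 20.4 and 24.1 against 10.6 and 17.2, and 12 natural killer and innate lymphoid markers to between 340 and 368 against 422 and 446. The part of these markers in the differences of the 6 genes was not tested. In sorted bulk samples, more cells that hold an RNA and more of that RNA per cell cannot be told apart.

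In ETP none of the 6 genes passed the test after either deletion, at edgeR adjusted p between 0.787 and 0.996 after pI-pC and between 0.907 and 0.945 after tamoxifen. The background was low too, at 0.0416% of 12010 genes called after pI-pC and 0% of 12924 after tamoxifen. At an unadjusted p under 0.05, 1 of the 6 genes was higher after pI-pC and 3 after tamoxifen, none was lower, and DESeq2 called 0 of the 6 in both. Over all genes the unadjusted count was 326 higher and 342 lower after pI-pC and 343 higher and 297 lower after tamoxifen, and DESeq2 called 86 and 2. The SE of the 6 genes on the log2 scale lay between 0.236 and 0.586 in ETP and between 0.0741 and 0.396 in DN3. The DN3 comparisons chose the genes, which favours a small SE there, so the 2 ranges do not compare the stages.

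Evl had the lowest unadjusted p of the 6 genes in pI-pC ETP. Its levels were 119, 121 and 105 CPM in DeltaMxCre ETP and 37.7, 103 and 31.8 in MxCre ETP (log2 1.00, SE 0.377, unadjusted p of the edgeR test = 0.0200, adjusted p = 0.787). The groups did not overlap, but MxCre ETP 2 lay just under the deleted libraries, and without it the log2 fold change was 1.73. After tamoxifen Evl stood at 187, 61.0, 77.0 and 85.9 CPM in DeltaTamCre ETP and at 59.9, 72.4, 31.7 and 53.8 in TamCre ETP (log2 0.92, SE 0.386, adjusted p = 0.907). There the groups overlapped, and DeltaTamCre ETP 1 stood far above the others. Without it the log2 fold change was 0.45.

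Il31ra and Ggt5 gave values of opposite sign in the 2 ETP deletions. Il31ra held 29.9, 28.8 and 28.6 CPM in DeltaMxCre ETP against 19.0, 10.7 and 19.5 in MxCre ETP (log2 0.83, SE 0.400, edgeR adjusted p = 0.902), without overlap. After tamoxifen it held 12.1, 29.4, 29.7 and 19.2 CPM against 20.7, 26.2, 25.8 and 27.5 (log2 -0.14, SE 0.259, 0.945), and the deleted libraries lay on both sides of the controls. Ggt5 held 9.45, 10.4 and 4.60 CPM in DeltaMxCre ETP against 15.1, 19.1 and 10.7 in MxCre ETP (log2 -0.88, SE 0.586, adjusted p = 0.990). Here all deleted libraries were below the controls, the reverse of DN3. After tamoxifen Ggt5 held 14.0, 17.3, 12.5 and 13.1 CPM against 10.3, 6.79, 6.32 and 8.80 (log2 0.82, SE 0.250, unadjusted p of the edgeR test = 0.00594, adjusted p = 0.907), with all deleted libraries above the controls. That was the lowest unadjusted p of the 6 genes in either ETP deletion. None of these 4 differences passed the test.

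Stage markers moved with the pI-pC deletion in ETP. The 12 DN3 markers summed to between 11886 and 12975 CPM in DeltaMxCre ETP and between 7628 and 8752 in MxCre ETP, and Il2ra among them had means of 4730 and 1971 CPM. The 9 precursor markers summed to between 516 and 683 CPM against 1075 and 1405. The DN3 sum was thus higher and the precursor sum lower in the deleted libraries. The 12 myeloid markers summed to between 69.8 and 101 CPM against 128 and 280, the 11 dendritic markers to between 131 and 145 against 177 and 198, and the 12 natural killer and innate lymphoid markers to between 216 and 324 against 375 and 642. After tamoxifen the DN3, precursor and myeloid sums overlapped between the ETP groups. The part of these markers in the ETP values of the 6 genes was not tested.

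The other 3 genes overlapped between deleted and control ETP in both experiments. Jakmip1 had log2 fold changes of 0.44 (SE 0.394) after pI-pC and 0.43 (SE 0.247) after tamoxifen. Its tamoxifen libraries ran from 56.3 to 155 CPM when deleted and from 66.2 to 82.3 in controls. Cd53 had -0.25 (SE 0.277) and 0.53 (SE 0.236), and Qsox2 -0.34 (SE 0.437) and -0.35 (SE 0.252). The Qsox2 levels in ETP were low after tamoxifen, between 7.59 and 14.6 CPM in DeltaTamCre and between 11.2 and 15.9 in TamCre.

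After the Notch1 antibody, Jakmip1 and Cd53 rose in DN3 cells and the other 4 genes did not pass. Jakmip1 had 38.7, 43.7 and 35.9 CPM in AntiNRR DN3 and 21.2, 13.3 and 21.1 in IgG DN3, a 2.11-fold rise (log2 1.08, SE 0.238, edgeR adjusted p = 0.00688). Cd53 had 109.6, 78.3 and 112 CPM against 52.8, 39.5 and 48.5, also a 2.11-fold rise (log2 1.08, SE 0.167, adjusted p = 0.000201). All 3 antibody libraries were above all 3 IgG libraries for both genes, which is a description beside the test. The 2 called of 6 stand beside 5.61% of 12658 genes called in either direction and 2.65% called higher. Without IgG DN3 2 the Jakmip1 call did not pass (log2 0.88, adjusted p = 0.0618).

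Il31ra went the other way in number. Its counts were 0, 0 and 19 in AntiNRR DN3 and 9, 88 and 50 in IgG DN3, or 0, 0 and 1.40 CPM against 0.451, 5.37 and 2.98. IgG DN3 1 was itself lower than AntiNRR DN3 3, and the fitted log2 fold change of -2.66 (SE 1.43) had an edgeR adjusted p of 0.365. Without AntiNRR DN3 3 it was -8.64 (adjusted p = 0.0256), a value that rests on libraries at 0, where a count of 0 allows up to 3 counts, so it gives no size of the difference. Evl was at 13.2, 7.63 and 13.2 CPM against 8.52, 4.70 and 6.91 (log2 0.74, SE 0.409, adjusted p = 0.386), with overlap. Ggt5 (log2 -0.30, SE 0.748, adjusted p = 0.908) and Qsox2 (log2 -0.11, SE 0.186, adjusted p = 0.856) overlapped as well. Qsox2 stayed between 39.1 and 52.6 CPM in all 6 libraries of this comparison.

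Beside these values, 9 precursor markers summed to between 317 and 355 CPM in AntiNRR DN3 and between 229 and 245 in IgG DN3, with Cd34, Lyl1 and Lmo2 at 0 in AntiNRR DN3. The 7 gamma-delta T-cell markers summed to between 165 and 171 CPM against 85.1 and 104, and the 12 natural killer and innate lymphoid markers to between 465 and 496 against 244 and 293, with Klrb1c, Klrd1, Ncr1, Gzmb and Klrk1 at 0 in both groups. The 12 DN3 markers summed to between 13330 and 14706 CPM against 16659 and 17252. Rn45s took between 4.77% and 6.80% of counts in AntiNRR DN3 and between 2.75% and 3.74% in IgG DN3. The 8 double-positive markers summed to between 2816 and 3092 CPM against 2245 and 2719. The 12 stroma markers summed to between 433 and 478 CPM against 407 and 424, with Krt5, Krt8, Foxn1, Col1a2 and Col3a1 at 0 in both groups. The 11 dendritic markers summed to between 162 and 177 CPM against 142 and 160. The summed precursor, gamma-delta, innate, double-positive, stroma and dendritic markers were thus higher and the summed DN3 markers lower in the antibody libraries. Single genes weighed heavily in such sums. Mean Kit was 179 CPM in AntiNRR DN3 and 98.9 in IgG DN3, and mean Il2ra was 637 and 3413. Cd34, Lyl1 and Lmo2 went against the precursor sum, with counts in IgG DN3. The part of these markers in the rises of Jakmip1 and Cd53 was not tested.

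In ETP the antibody changed none of the 6 genes by the test (edgeR adjusted p between 0.528 and 0.999), beside 0% of 12568 genes called. Without adjustment (p under 0.05), 328 of all genes were higher and 359 were lower, and DESeq2 called 28. Of the 6 genes 1 was higher by the same measure, and DESeq2 called 0. That gene was Cd53, with 232, 185 and 278 CPM in AntiNRR ETP and 141, 143 and 145 in IgG ETP (log2 0.69, SE 0.177, edgeR adjusted p = 0.528, DESeq2 0.0842), and its groups did not overlap. Il31ra also did not overlap, at 9.91, 8.73 and 9.95 CPM against 11.5, 16.3 and 11.6 (log2 -0.46, SE 0.417). Evl, Ggt5, Jakmip1 and Qsox2 had log2 fold changes of 0.13, 0.15, 0.34 and 0.27 and overlapped. Whether the antibody effect differed between the stages was tested as an interaction, in which 0% of 13603 genes were called by edgeR (without adjustment 386 were higher and 357 lower, and DESeq2 called 5). The 6 genes had adjusted p between 0.917 and 1.00 there, with 0 under an unadjusted p of 0.05 and 0 called by DESeq2, so the rises of Jakmip1 and Cd53 in DN3 are not shown to differ from their ETP values.

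**Figure D3:**
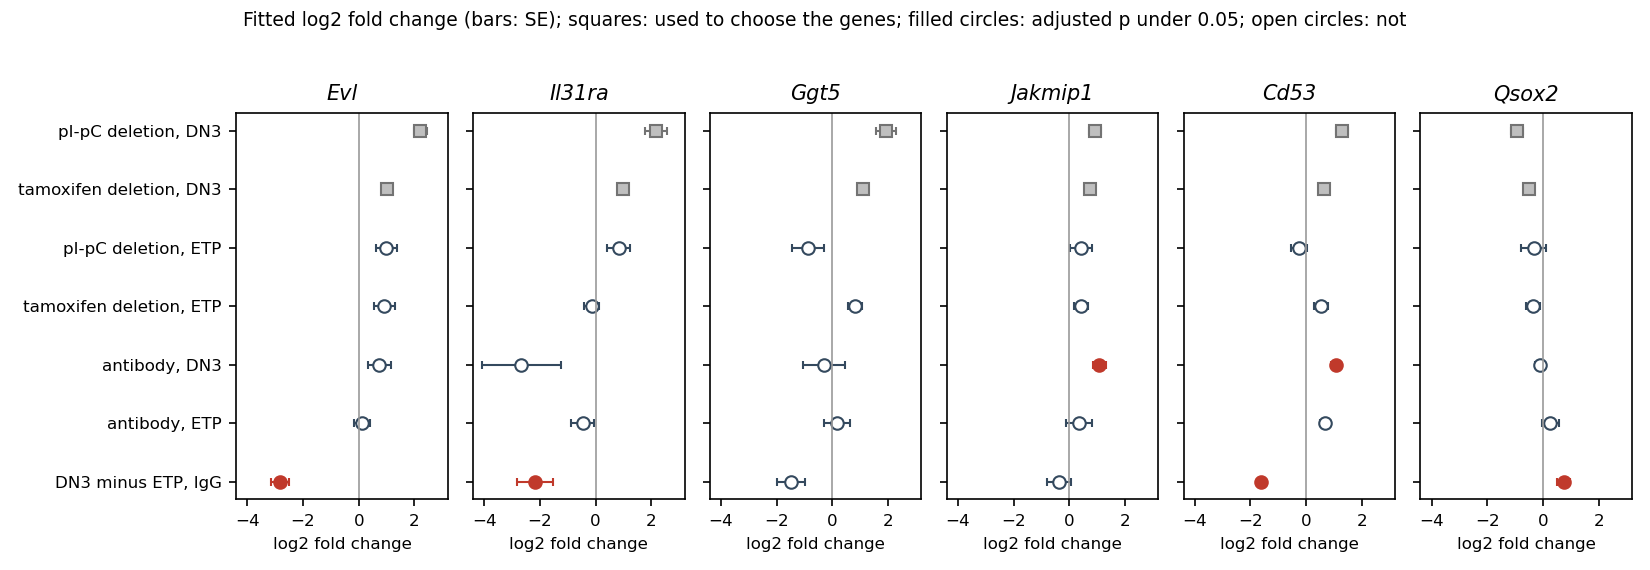
Fitted log2 fold changes of the 6 genes in 7 comparisons, with SE as bars. Grey squares are the 2 comparisons used to choose the genes, filled red circles passed an edgeR adjusted p of 0.05 and open circles did not. Filled circles appear for Jakmip1 and Cd53 after the antibody in DN3, and for Evl, Il31ra, Cd53 and Qsox2 between the stages.

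Between the stages, 3 of the 5 genes that were higher after deletion were lower in DN3 than in ETP, and Qsox2, lower after deletion, was higher in DN3. This was tested in the IgG libraries, which the choice of the genes did not use. Evl stood at 8.52, 4.70 and 6.91 CPM in IgG DN3 and at 28.8, 54.6 and 59.5 in IgG ETP, 7.08-fold lower in DN3 (log2 -2.82, SE 0.323, edgeR adjusted p = 2.75e-05). Cd53 stood at 52.8, 39.5 and 48.5 CPM against 141, 143 and 145, 3.05-fold lower (log2 -1.61, SE 0.151, adjusted p = 4.55e-06). Il31ra stood at 0.451, 5.37 and 2.98 CPM against 11.5, 16.3 and 11.6, 4.48-fold lower (log2 -2.16, SE 0.643, adjusted p = 0.0329). In none of these 3 did a DN3 library reach an ETP library, which is a description and adds no support to the test.

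Qsox2 stood at 39.1, 52.6 and 45.1 CPM in IgG DN3 and at 34.3, 26.0 and 21.0 in IgG ETP, 1.68-fold higher in DN3 (log2 0.75, SE 0.231, edgeR adjusted p = 0.0380). Ggt5 stood at 2.86, 4.33 and 2.92 CPM against 8.27, 8.85 and 11.1, apart but not called by edgeR (log2 -1.48, SE 0.504, adjusted p = 0.0602, DESeq2 0.0185). Jakmip1 stood at 21.2, 13.3 and 21.1 CPM against 15.3, 44.6 and 12.2 and overlapped (log2 -0.37, SE 0.426, adjusted p = 0.646). The 4 called genes stand beside 14.7% of 12720 genes called by stage, 7.6% lower in DN3 and 7.12% higher. The Il31ra call did not pass with a spread shared by all 4 antibody groups (adjusted p = 0.202) or without IgG DN3 1, IgG DN3 3, IgG ETP 1 or IgG ETP 2 (between 0.0581 and 0.1247). The Qsox2 call did not pass without IgG DN3 1, 2 or 3 or IgG ETP 2 or 3 (between 0.0545 and 0.188). IgG DN3 served as control here and in the antibody comparison, so these 2 sets of values share libraries. Malat1 took 1.07% to 1.39% of counts in IgG DN3 and 0.432% to 0.788% in IgG ETP, and Rn45s 2.75% to 3.74% against 8.93% to 13.8%, and their part in the stage differences was not tested. Of all genes called after pI-pC deletion in DN3, 125 were higher, of which 14.4% were lower and 28% higher in IgG DN3 than in IgG ETP. Of the 58 that were lower, 15.5% were lower and 20.7% higher in DN3.

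Stage levels in other libraries of this set are described without a test, since the MxCre and DeltaMxCre DN3 libraries chose the genes. That choice favours a wide gap in MxCre and a narrow one after deletion, so those ratios add no support to the IgG result. In MxCre controls the mean ETP level was 5.05 times the DN3 level for Evl, 7.12 times for Il31ra, 4.49 times for Ggt5 and 4.03 times for Cd53, and the DN3 level of Qsox2 was 1.74 times the ETP level, each without overlap. After pI-pC deletion these ratios were 2.17 for Evl and 2.79 for Il31ra, still without overlap, and Cd53 (1.39) and Qsox2 (1.16 in favour of DN3) overlapped. Ggt5 turned over, with a mean of 12.7 CPM in DeltaMxCre DN3 and 8.15 in DeltaMxCre ETP. Under the antibody the ETP level was 4.60 times the DN3 level for Evl, 20.5 times for Il31ra, 3.78 times for Ggt5 and 2.31 times for Cd53, and the DN3 level of Qsox2 was 1.31 times the ETP level, each without overlap. The Il31ra ratio rests on 2 DN3 libraries at 0. Jakmip1 overlapped between the stages in all 4 conditions.

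Ordered by mean level over the 8 groups of the pI-pC and antibody set, the 6 genes fell into different orders. Evl was highest in DeltaMxCre ETP (between 105 and 121 CPM), apart from the next group. DeltaMxCre DN3 (53.0 ± 7.49 CPM, SD, n = 3, as for the values that follow) stood among MxCre, AntiNRR and IgG ETP (57.6, 52.1 and 47.6), from which neighbour by neighbour it did not differ beyond their spread, and all 4 lay above the control and antibody DN3 groups. Il31ra had DeltaMxCre ETP on top (29.1 ± 0.689), then MxCre ETP, IgG ETP, DeltaMxCre DN3 and AntiNRR ETP without a gap, and, after 2 further gaps, AntiNRR DN3 last (0.465 ± 0.806). For Ggt5, DeltaMxCre DN3 (12.7 ± 1.24) was second to MxCre ETP (15.0 ± 4.23), and the only gap separated DeltaMxCre ETP (8.15 ± 3.11) from IgG DN3 (3.37 ± 0.836). Jakmip1 had DeltaMxCre DN3 (40.0 ± 0.828) and AntiNRR DN3 (39.4 ± 3.91) on top and no gap between neighbours. Cd53 was highest in AntiNRR ETP (231 ± 46.7), and its 1 gap parted AntiNRR DN3 (100.05 ± 18.9) from IgG DN3 (46.9 ± 6.78). Qsox2 was highest in IgG DN3 (45.6 ± 6.75), MxCre DN3 (43.0 ± 2.21) and AntiNRR DN3 (42.7 ± 2.04), and a gap parted these from the ETP groups and DeltaMxCre DN3 (22.5 ± 5.20).

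Of the nearest relatives of these genes, edgeR called 1 in a DN3 deletion, Cd82 after pI-pC, and DESeq2 also called Cd81 after pI-pC and Cd9 after tamoxifen. Over all genes edgeR called 1.44% after pI-pC and 0.0827% after tamoxifen, and DESeq2 called 527 and 458 genes. Levels between genes are compared here per kilobase of annotated exons. In MxCre DN3 the selected genes ranged from 23.7 CPM per kilobase for Cd53, through 9.25 for Qsox2, 3.88 for Evl, 2.45 for Jakmip1 and 0.563 for Ggt5, to 0.407 for Il31ra. Among the Ena/VASP genes, Vasp held 24.9 and Enah 0.0250 CPM per kilobase there. Il6st, the common chain of interleukin-6 type receptors, whose gene lies near Il31ra (chromosome 13, 112464070 to 112510086, plus strand), held 12.2, and Osmr, the chain that pairs with Il31ra, had no count in MxCre or DeltaMxCre DN3 and a highest group mean of 0.809 CPM in any of the 12 groups. Ggt1, beside Ggt5 (chromosome 10, 75561604 to 75586200, plus strand), Ggt6 and Ggt7 did not exceed group means of 0.741, 0.159 and 0.925 CPM. Jakmip2 was at 0 in all 40 libraries, and Jakmip3 did not exceed 0.351 CPM. Ggt5 and Jakmip1 were thus the members of their small families with the most RNA in MxCre DN3, and Evl had less than Vasp.

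**Figure D4:**
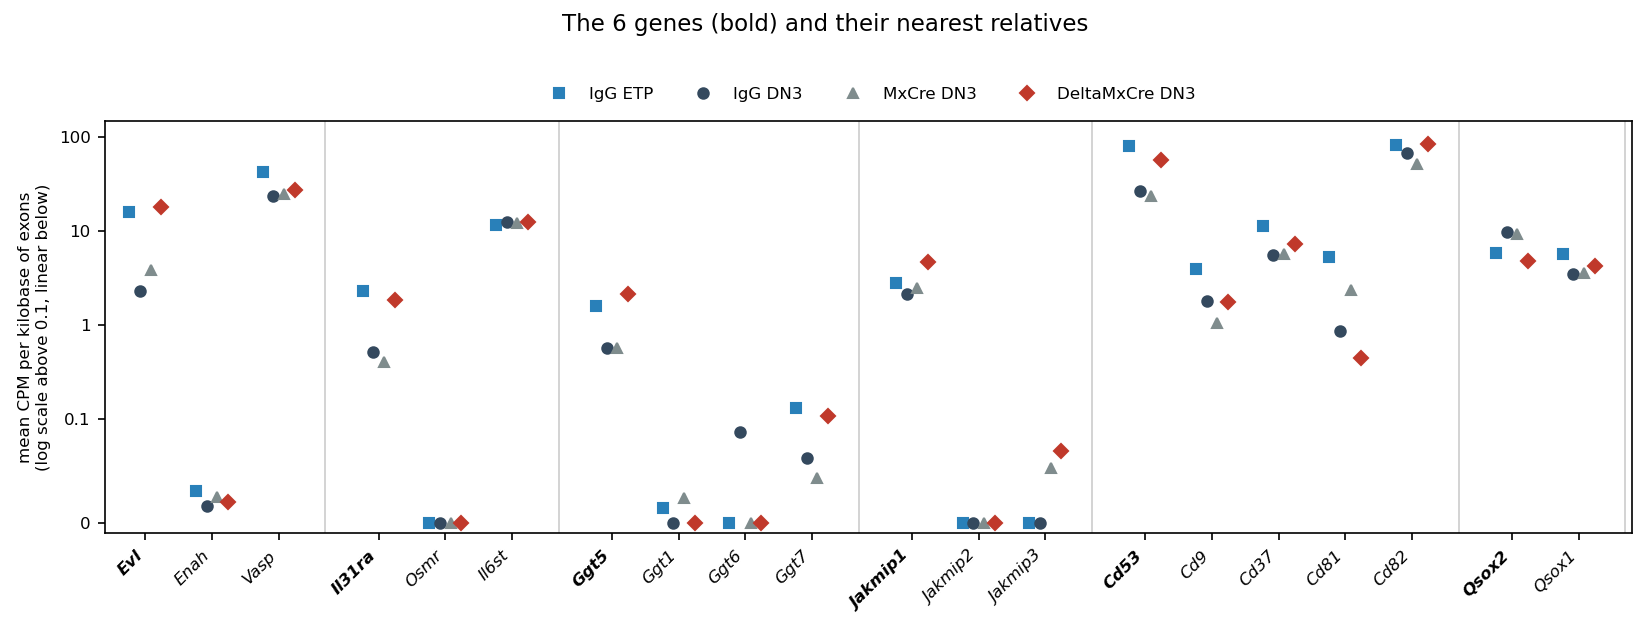
Mean CPM per kilobase of exons of the 6 genes (bold) and their nearest relatives in IgG ETP, IgG DN3, MxCre DN3 and DeltaMxCre DN3, on an axis that is logarithmic above 0.1 and linear below. Osmr and Jakmip2 lie at 0 in all 4 groups, and Evl, Il31ra, Ggt5, Jakmip1 and Cd53 stand higher in DeltaMxCre DN3 than in MxCre DN3.

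After pI-pC deletion in DN3, Vasp had a log2 fold change of 0.13 (SE 0.167), Il6st 0.04 (SE 0.129) and Qsox1, the other sulfhydryl oxidase, 0.26 (SE 0.200), none called by edgeR (adjusted p = 0.770, 0.914 and 0.585). Of the tetraspanins, Cd82 rose (0.71, SE 0.144, adjusted p = 0.0222), while Cd37 (0.35), Cd9 (0.73) and Cd81 (-2.42) did not pass (0.466, 0.711 and 0.121; DESeq2 0.0257 for Cd81). After the antibody in DN3 Cd82 fell by 0.76 on the log2 scale (SE 0.110, adjusted p = 9.44e-05), whereas Cd53 rose. After tamoxifen in DN3 edgeR called no relative. Cd82 had 0.15 there (SE 0.0953, adjusted p = 0.464), and Cd9 had 0.47 (SE 0.136, edgeR adjusted p = 0.164, DESeq2 0.0297). In the IgG libraries Qsox1 was lower in DN3 (-0.73, SE 0.203, adjusted p = 0.0228), the reverse of Qsox2, and Vasp, Cd37 and Cd81 were lower in DN3 like Evl and Cd53 (-0.83, -1.03 and -2.61, adjusted p = 0.00106, 0.0111 and 0.00155).

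Lists of related genes, which were drawn up with earlier results known, were mostly not called after deletion in DN3. Over all genes edgeR called 1.44% after pI-pC and 0.0827% after tamoxifen. Few calls in lists of this size therefore say nothing about the families. After pI-pC, apart from the selected genes, 1 of 20 Ena/VASP and actin partner genes was called, Cttn, which binds branched actin (log2 -2.22, edgeR adjusted p = 0.0303), and 1 of 21 receptor, Janus kinase, STAT and SOCS genes, Cish, an inhibitor of cytokine signalling (1.87, 0.0101). Of 25 tetraspanin and partner genes 1 was called, Cd82, and none of 12 glutathione and leukotriene genes, 10 kinesin and GABA-B receptor partner genes of the Jakmip1 list and 20 disulfide bond genes. The medians of these 6 lists lay between -0.19 and 0.22 on the log2 scale, beside -0.01 over all genes. After tamoxifen none of 23, 23, 25, 15, 10 and 21 other genes of the lists was called by edgeR, with medians between -0.08 and 0.11 beside 0.01.

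After the antibody in DN3, where 5.61% of all genes were called, the lists held calls in both directions. Tes (log2 1.53) and Fyb (0.58), both adaptors of actin and adhesion, rose and the crosslinker Actn1 fell by 0.35, of 21 genes. Jak1 (0.49) and Stat3 (0.44) rose, of 21. Of 12 glutathione and leukotriene genes, Lta4h rose (0.36) and glutathione reductase, Gsr, fell by 0.82. Of 10 genes of the Jakmip1 list, Gng2 (1.18) and Jak1 rose and Cdk5rap2 fell by 0.64, and of 20 disulfide bond genes Txnrd1 fell by 0.42. Of 23 tetraspanin and partner genes other than Cd53, Cd82 fell and none rose. The edgeR adjusted p of these calls lay between 9.44e-05 and 0.0479.

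By stage, where 7.6% of all genes were lower and 7.12% higher in DN3, 7 of 21 disulfide bond genes other than Qsox2 were lower in DN3 and 0 higher, among them Qsox1, Txndc12 (-0.86), P4hb (-0.52) and Txn1 (-0.60), with a list median of -0.36 beside -0.01 over all genes. Of 26 tetraspanin and partner genes 9 were lower, among them Cd2 (-5.01) and Cd81, and 1 was higher, Ptprc (0.59), which is named after its value was seen. The median of that list was -0.54. Of 21 actin genes 5 were lower, among them Tes (-3.06), Pfn1 (-0.71) and Vasp, and Actn1 (0.93) was higher. Other lists held calls upward in DN3. Of 10 genes of the Jakmip1 list 3 were higher, the centrosome and Golgi scaffolds Akap9 (0.95) and Cdk5rap2 (0.95) and the microtubule protein gene Clip1 (0.73), and 1 was lower, Gng2 (-2.28). Of 22 receptor, Janus kinase, STAT and SOCS genes 2 were higher, among them Socs3 (1.298), and Socs2 (-2.38) was lower. Of 13 glutathione and leukotriene genes Gsr (0.83) was higher and Alox5ap (-2.23), a leukotriene synthesis protein gene, was lower. edgeR called no gene of the 6 lists in ETP after either deletion or after the antibody. Over all genes it called 0.0416% there after pI-pC and 0% after tamoxifen and after the antibody.

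Other genes share sequence with the selected genes in GENCODE, and the counting is not given in the sources used here, so reads in shared bases could belong to either. Degs2, a sphingolipid desaturase gene on the opposite strand, shares 278 exon bases with Evl. Its levels were 12.9, 18.0 and 14.4 CPM in DeltaMxCre DN3 and 8.31, 16.8 and 10.7 in MxCre DN3 and overlapped (log2 0.34, SE 0.307, edgeR adjusted p = 0.653). After tamoxifen in DN3 Degs2 did not overlap and lay in the direction of Evl, at 24.3, 19.1, 20.3 and 20.6 CPM when deleted and 13.3, 16.4, 15.8 and 17.9 in controls (log2 0.42, SE 0.117, adjusted p = 0.157). By stage Degs2 was higher in IgG DN3 (1.32, SE 0.389, adjusted p = 0.0307), where Evl was lower. The antisense gene Gm27196 shares 647 exon bases with Qsox2, the gene Gm1043 shares 4031 with Jakmip1, and the pseudogene Gm3226 shares 45 with Il31ra, so these 3 levels are less certain.

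Over the 24 libraries of the pI-pC and antibody set, 9325 genes were compared with each selected gene by the correlation of log2(CPM + 1), given as a description. Evl was most like Pim1, a survival kinase (r = 0.91, rho = 0.89), and Arap2 (0.89, 0.81). Il31ra was most like the ion channel gene Trpa1 (0.87, 0.90) and Dennd3 (0.87, 0.83). Cd53 was most like the acyl-CoA dehydrogenase gene Acadl (0.92, 0.88) and the phosphatase gene Cdc14a (0.92, 0.87). These points share 2 stages and 8 groups, so a stage difference alone gives a high value. Ggt5 was most like the class I histocompatibility gene H2-D1 (0.83, 0.74) and Nbeal2 (0.82, 0.84), Jakmip1 like Fam63b (0.78, 0.78) and Trim12a (0.78, 0.73), and Qsox2 like Birc2, an inhibitor of apoptosis (0.80, 0.74), and the cadherin gene Fat4 (0.80, 0.83). Within the 12 DN3 libraries r was 0.90 for Evl with Pim1 and 0.83 for Cd53 with Acadl, and within the 12 ETP libraries 0.79 and 0.71. Some other pairs were weaker within ETP, with r = 0.41 for Evl with Arap2, 0.44 for Ggt5 with H2-D1 and 0.49 for Il31ra with Dennd3. Among the pairs stronger within ETP than within DN3 were Il31ra with Trpa1 (0.87 against 0.78) and Jakmip1 with Fam63b (0.83 against 0.76). Qsox2 with Birc2 was another (0.86 against 0.60). Among the selected genes, Evl and Qsox2 had r = -0.93 within DN3 and -0.51 within ETP, and Jakmip1 and Cd53 had 0.78 within DN3 and 0.03 within ETP. Not all pairs were alike in DN3, with r = 0.01 for Il31ra with Jakmip1 and 0.06 for Il31ra with Cd53. Cd53 and Qsox2 had -0.45 within DN3 and 0.73 within ETP. The DN3 values hold the libraries that chose the genes.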

How the data were processed

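RNA from sorted DN3 and ETP mouse thymocytes was measured in 40 libraries of 12 groups. The authors deposited 3 tables of estimated counts per gene symbol, unscaled, in which 0.507% to 1.23% of values per library are not whole (tolerance 0.01). All were rounded for the tests. Per the submitters' processing notes, the tools were Bowtie2 2.1.0.0, Cuffdiff 2.1.1, TopHat2 2.0.9, FastQC 0.10.0 and Cufflinks, and the build was mm10. The annotation and counting settings are not given in the sources used here.

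Genes passing filterByExpr (minimum count 10, minimum total 15) got TMM scaling and a robust edgeR 4.0.16 quasi-likelihood fit in R 4.3.3 with group as the only term. P-values were adjusted by Benjamini-Hochberg over all genes, and genes were called at an adjusted p under 0.05. Fold changes used edgeR's default prior count, and SE are the log2 fold change over the root of F. All 6 selected genes passed the filter in every comparison. DESeq2 1.42.0, other scalings and filters, a spread shared by 4 groups, a replicate block and leaving out each library were alternatives. The tests were tried on simulated data.

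The named genes are the 6 selected genes, Zmiz1, the nearest relatives, at most the 4 list genes with the lowest p per list and comparison, up to 3 genes just outside the choice, and the 2 genes of most like pattern with a mean of at least 5 CPM. Degs2 and the other overlapping genes were added after their values were seen. The genes and lists were chosen with earlier results of these data known. Gene positions come from GENCODE M21 (GRCm38), and promoters from RefSeq (GRCm38.p6), matched by symbol.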

Additional observations from a re-analysis of the deposited data

How the results depend on the processing

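Of the settings run for each of the 6 genes, the direction and the call were kept in 72 of 72 for pI-pC DN3, 72 of 72 for pI-pC ETP, 69 of 72 for antibody DN3, 68 of 72 for antibody ETP, 60 of 72 for the IgG stage comparison, 77 of 78 for tamoxifen ETP and 101 of 102 for the antibody by stage. For the 2 DN3 deletions, which have no test, this counts direction and size, and in tamoxifen DN3 83 of 84 held, the other being Jakmip1 at 0.88 without the 3 libraries with more Cd8a. DESeq2 called 527 genes in pI-pC DN3, 458 in tamoxifen DN3, 86 in pI-pC ETP, 2 in tamoxifen ETP, 28 in antibody ETP and 5 for the antibody by stage. With no filter beyond 1 count, 347 genes were called in pI-pC DN3, 18 in pI-pC ETP and 8 in antibody ETP, and a spread shared by 4 groups called 405 in pI-pC DN3. The cause of these differences was not tested. Without the 3 libraries above 20 CPM of Cd8a, 0 genes and 0 of the 6 were called in tamoxifen DN3, with 5 libraries left. The replicate block called 0 genes and 0 of the 6 in tamoxifen DN3 and 14 genes in pI-pC ETP. The labels do not say that library numbers pair samples, and the deviations of same-numbered libraries correlated weakly or negatively (between -0.582 and 0.161, every one negative in tamoxifen DN3), so a call lost under the block is not read as a weaker effect.

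Leaving out each library in turn, between 12 and 403 genes were called in pI-pC DN3, 0 and 8 in tamoxifen DN3, 0 and 17 in pI-pC ETP, 0 and 1 in tamoxifen ETP, 351 and 677 in antibody DN3, 0 and 5 in antibody ETP, 941 and 1883 by stage and 0 and 3 for the antibody by stage. Of the 6 genes, between 1 and 5 were called in pI-pC DN3, 0 and 4 in tamoxifen DN3, 1 and 3 in antibody DN3 and 2 and 3 by stage. The counts for the 2 DN3 deletions describe the choice of the genes and are not a test. The direction turned for values that had not been called. Over the libraries left out, Evl in antibody ETP ran from -0.140 (without IgG ETP 1; -0.0395 without AntiNRR ETP 2) to 0.317, Ggt5 from -0.0155 (AntiNRR ETP 2) to 0.348 and Jakmip1 from -0.101 (AntiNRR ETP 1) to 1.14. Il31ra in tamoxifen ETP ran from -0.305 to 0.0536 (DeltaTamCre ETP 1), and Qsox2 in antibody DN3 from -0.205 to 0.00407 (IgG DN3 2). Jakmip1 by stage ran from -0.686 to 0.434, and for the antibody by stage from -0.0548 to 1.18, each turning without IgG ETP 2. Depth limits Il31ra in DN3, with 147 counts over the 3 IgG DN3 libraries.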
